A study of Mus musculus with 8 samples.

Results

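Transcripts of 5 enzymes and of 1 transporter that serve heme synthesis were followed in whole blood of mice. The enzymes were Alas1, Alas2, Alad, Cpox and Fech, and the transporter was Slc25a37, also called mitoferrin 1. The members are 7 probe sets of the Affymetrix Mouse 430 2.0 array out of 45101. The rule that names them goes by gene and uses no measured value, but it was written with earlier results of these data known. All 7 had a log2 value above 4 on all 8 arrays, so none owed its place among the 29231 tested probe sets to 1 group alone.

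The study compared 4 control mice, kept at room conditions in Kathmandu, with 4 hypoxic mice, taken through hypobaric hypoxia on an expedition to Mount Everest in which oxygen fell from 21% to about 7%. Blood was drawn from the vena cava after 15 days, and the RNA of 100 µl was put on 1 array per mouse. The labels give no strain, sex or age, and no mouse carries a stated allele or drug. Travel and whatever else the expedition brought cannot be told apart from oxygen in this design. The mice are numbered separately and nothing says whether they shared cages. The p-values rest on the spread between these animals, and limma draws that spread in part from the other probe sets or pairs fitted. Values are GCRMA log2 expression, in which a difference of 1 is a doubling, and errors of means are SD over 4 mice.

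Heme is built along a chain of enzymes that begins and ends in the mitochondrion and passes through the cytosol. The first step, made by Alas1 in most cells and by Alas2 in red cell precursors, joins glycine and succinyl-CoA to aminolevulinic acid. Alad then joins aminolevulinic acid in pairs to porphobilinogen, Cpox acts on coproporphyrinogen on the way to protoporphyrin, and Fech inserts iron to give heme. Slc25a37 carries iron across the inner mitochondrial membrane of erythroid cells. Reticulocytes, the youngest red cells of the blood, still hold RNA and mitochondria and still make heme, whereas mature red cells have lost their mitochondria.

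Alad and Cpox were higher in hypoxic than in control blood, and no member fell. Alad rose 17.3-fold and Cpox 1.57-fold, while the erythroid first enzyme Alas2 and the last enzyme Fech differed by 0.11 or less on the log2 scale. The iron importer Slc25a37 lay higher in every hypoxic mouse than in any control mouse, by 0.25 on average, and did not pass the test. In all, 2 of 7 members rose and 5 did not pass (limma, Benjamini-Hochberg adjusted p under 0.05), where 31.2% of all tested probe sets passed in either direction and 12.4% passed with a higher level in hypoxic mice. With 2 of 7 members (28.6%) rising, the share lies near the first of these and above the second. The median change was 0.11 over the 7 members and -0.06 over all tested probe sets. For 3 of 7 members all hypoxic mice lay above all controls, against 13.9% of tested probe sets. In a sample of mixed cells such as whole blood, more cells of a type and more RNA per cell cannot be told apart.

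**Figure D1:**
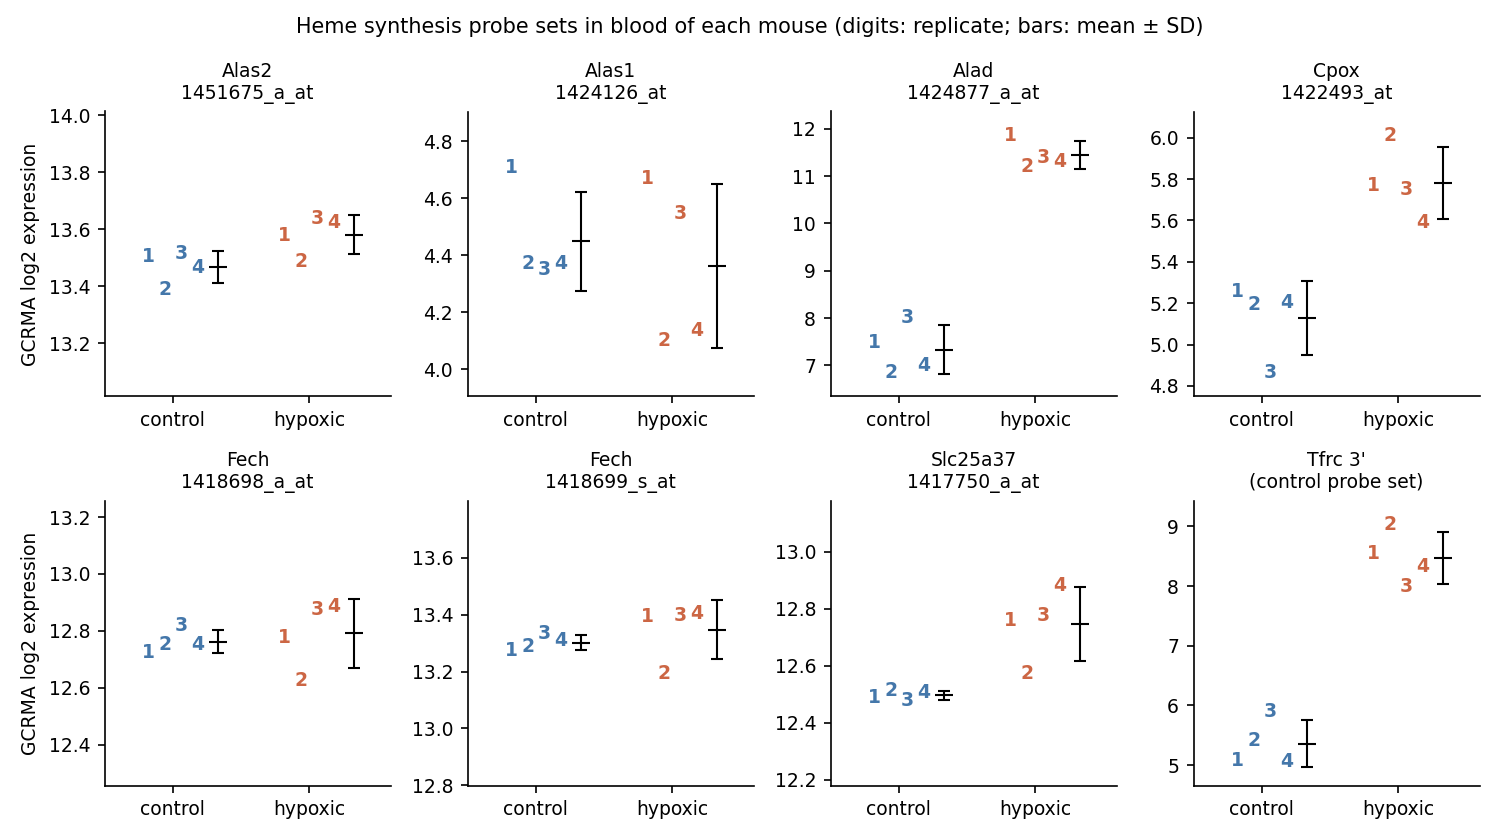
GCRMA log2 expression (y axis, a separate scale in each panel) of the 7 heme synthesis probe sets and of the transferrin receptor 3' control probe set in 4 control (blue) and 4 hypoxic (orange) mice. Digits are replicate numbers and bars are the mean ± SD. The groups are far apart for Alad, apart for Cpox, narrowly apart for Slc25a37 and overlap for Alas1, Alas2 and Fech.

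Alas2, the erythroid enzyme that sets the pace of heme synthesis in red cell precursors, was already bright in the controls. Its probe set read 13.50, 13.39, 13.52 and 13.47 in control replicates 1 to 4, and 13.58, 13.49, 13.64 and 13.62 in hypoxic replicates 1 to 4. The groups overlapped, with hypoxic replicate 2 under control replicates 1 and 3. The means were 13.47 ± 0.06 and 13.58 ± 0.07, a difference of 0.11 ± 0.12 (SE) that did not pass (95% interval -0.15 to 0.37, adjusted p = 0.493, limma). In linear terms the interval runs from a fall of 9.79% to a rise of 29.6%. The highest value on any array lay between 14.22 and 14.36, so Alas2 was near the top of the scale and no array held a value more than 0.89 above its control mean.

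Alas1, the enzyme that makes aminolevulinic acid for the heme proteins of cells in general, was read by 1424126_at close to the filter level. The controls were at 4.71, 4.37, 4.35 and 4.37 and the hypoxic mice at 4.67, 4.10, 4.55 and 4.13. The values of the groups ran through each other, with the highest of all in a control and the lowest in a hypoxic mouse. The difference of -0.09 ± 0.17 (SE) did not pass (95% interval -0.45 to 0.28, adjusted p = 0.717, limma). These levels lie near 4.31, the highest mean among 27 bacterial control probe sets, which have no matching transcript in mouse RNA. That mean belongs to 1 probe set, and the second highest of the 27 was 3.297, under every Alas1 value. How much of the Alas1 signal is transcript was not tested.

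Alad, the cytosolic enzyme of the second step, had the largest rise of all 29231 tested probe sets. Its probe set, 1424877_a_at, was at 7.49, 6.85, 8.0 and 7.0 in the controls and at 11.87, 11.20, 11.40 and 11.31 in the hypoxic mice. The lowest hypoxic mouse lay 3.20 above the highest control, a gap wider than the spread of either group, which was 1.16 among controls and 0.66 among hypoxic mice. The means were 7.33 ± 0.52 and 11.45 ± 0.29, a rise of 4.11 ± 0.24 (SE, 95% interval 3.58 to 4.65, adjusted p = 4.61e-06, limma). That is 17.3-fold, with an interval from 11.9 to 25. The authors' deposited table lists a fold of 16.7 for Alad, which is a ratio of linear means of the same arrays, and a q-value of 0%.

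Cpox, the enzyme of the mitochondrial intermembrane space that oxidises coproporphyrinogen, rose by less. Its probe set, 1422493_at, was at 5.26, 5.20, 4.86 and 5.20 in the controls and at 5.77, 6.01, 5.75 and 5.59 in the hypoxic mice. No values overlapped, and 0.34 separated the groups. The rise from 5.13 ± 0.18 to 5.78 ± 0.17 was 0.65 ± 0.15 (SE, 95% interval 0.33 to 0.97, adjusted p = 0.0067, limma). Among the 27 bacterial control probe sets, 1 differed by more than this between the groups, by 0.68, and no other did. That probe set also had the highest mean of the 27, at 4.31, and what gave its signal was not tested. The comparison is of size only and rests on that 1 probe set.

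Fech, the mitochondrial enzyme that puts iron into protoporphyrin, was read by a pair of probe sets that gave the same picture. At 1418698_a_at the controls lay at 12.73, 12.75, 12.82 and 12.75 and the hypoxic mice at 12.78, 12.63, 12.88 and 12.89. At 1418699_s_at the controls lay at 13.28, 13.29, 13.33 and 13.31 and the hypoxic mice at 13.39, 13.19, 13.40 and 13.40. In both, hypoxic replicate 2 was the lowest of all 8 mice and the other 3 hypoxic mice lay among or above the controls. The differences were 0.03 ± 0.12 (SE, 95% interval -0.24 to 0.30, adjusted p = 0.878, limma) and 0.05 ± 0.12 (SE, 95% interval -0.22 to 0.31, adjusted p = 0.796, limma). The sign of both turned when arrays were centred on their bright probe sets, to -0.03 and -0.01, and that of the first also under renewed quantile normalization.

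Slc25a37, the iron importer, had tightly grouped controls. Its probe set, 1417750_a_at, was at 12.49, 12.51, 12.48 and 12.51 in the controls and at 12.76, 12.57, 12.78 and 12.88 in the hypoxic mice. Every hypoxic mouse lay above every control, the closest by 0.06. The difference of 0.25 ± 0.12 (SE, 95% interval -0.02 to 0.52) did not pass in the fit across all probe sets (adjusted p = 0.144, limma). The exact permutation test of this probe set alone gave the smallest p it can with 4 mice per group (0.0286, two-sided). Groups that do not overlap always give that p, so it only restates their separation. The outcome of the linear model depends on how variance is treated. The error from the 8 values of Slc25a37 alone was 0.07, and the same model fitted with no moderation gave an adjusted p of 0.0424. In the authors' deposited table Slc25a37 has a q-value of 3.97%, which makes 3 of 7 members with a q-value under 5% (Alad, Cpox and Slc25a37), where 16.5% of the listed probe sets were under 5% with a higher mean in hypoxic mice.

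**Figure D2:**
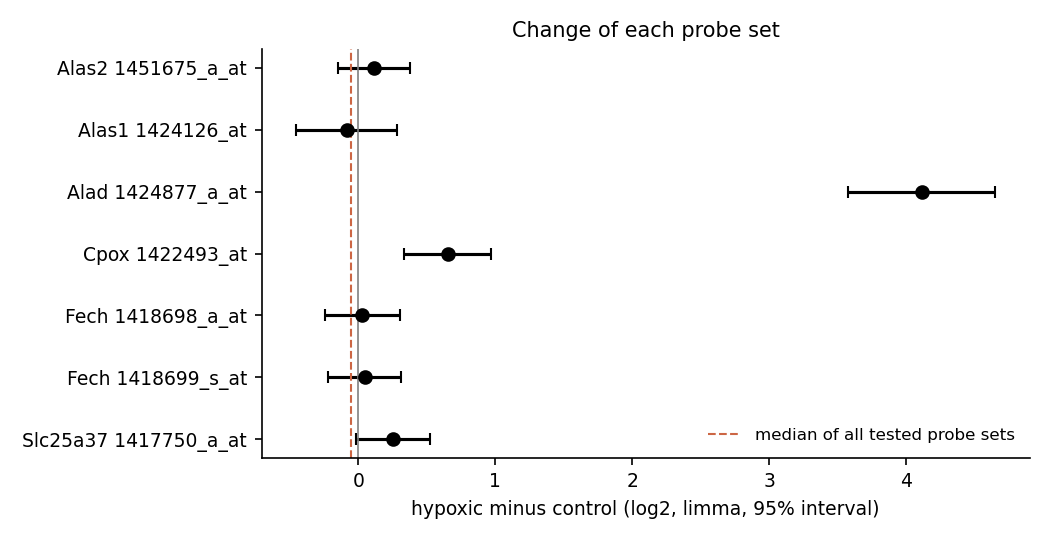
Difference of group means, hypoxic minus control, on the log2 scale (x axis) for each probe set (y axis), with the 95% interval of limma, 4 mice per group. Alad stands at 4.11 and Cpox at 0.65, the intervals of the other 5 probe sets include 0, and the dashed line marks the median of all tested probe sets at -0.06.

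Whether members changed by different amounts was asked within each mouse, by taking the log2 difference of 2 probe sets on the same array and comparing it between groups. Scaling of a whole array drops out of such a difference. Over the 21 pairs, 12 gave the smallest p that an exact permutation test allows here (0.0286, two-sided, n = 4 per group), which is 0.05 after adjustment over the pairs and so not under the threshold. The same 12 pairs had an adjusted p under 0.05 with limma on the within-mouse differences. The pairs share probe sets and are not independent.

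All 6 pairs that include Alad were among the 12. Alad rose by 4.00 more than Alas2, with a 95% interval from 3.41 to 4.59, and by 3.46 more than Cpox, with an interval from 2.65 to 4.27. No array held a value more than 0.89 above the control mean of Alas2. Whether a rise like that of Alad would register there was not tested, and these differences compare recorded signals only. Cpox rose by 0.54 more than Alas2, with an interval from 0.19 to 0.88. Slc25a37 gained 0.22 on Fech at 1418698_a_at and 0.21 at 1418699_s_at, with intervals from 0.11 to 0.34 and from 0.09 to 0.32, and in both the groups did not overlap. For Slc25a37 against Alas2 the difference was 0.14 with an interval from -0.01 to 0.28, and it did not pass (adjusted p = 0.0852, limma). The Fech probe sets differed from each other by 0.02 in their change, with an interval from -0.13 to 0.09 for the first minus the second. Alas2 and Alas1 could not be told apart in their change, since the difference of 0.20 had an interval from -0.14 to 0.54.

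**Figure D3:**
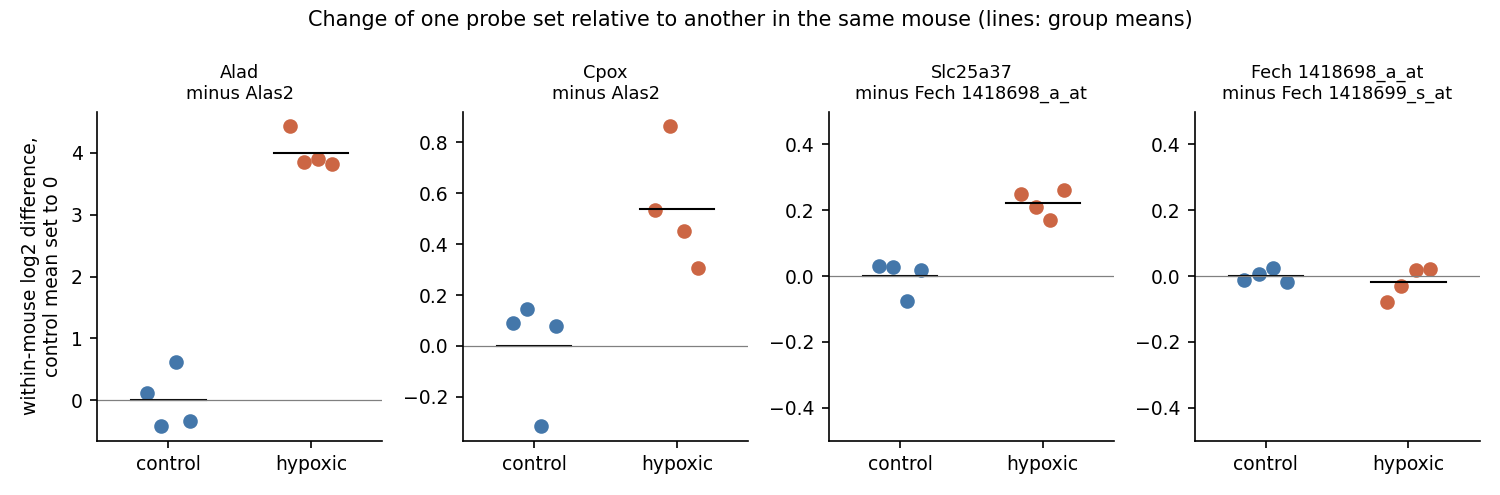
Within-mouse log2 difference of 2 probe sets (y axis, control mean set to 0, scales differ between panels) in 4 control (blue) and 4 hypoxic (orange) mice, with lines at the group means. The hypoxic mice lie apart from the controls for Alad minus Alas2, Cpox minus Alas2 and Slc25a37 minus Fech, and among them for the pair of Fech probe sets.

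The hypoxic mice did not move as one. Hypoxic replicate 2 was the lowest of the 4 hypoxic mice at 6 of the 7 members and the highest at the remaining one, Cpox. The same mouse had the highest level of the transferrin receptor (Tfrc), which brings transferrin-bound iron into red cell precursors, at all 3 of its control probe sets. At the 3' probe set Tfrc was at 5.07, 5.42, 5.90 and 5.05 in the controls and at 8.54, 9.03, 7.99 and 8.33 in the hypoxic mice. Its rise there was 3.11 ± 0.24 (SE, adjusted p = 1.42e-05, limma), larger than that of 0.92 ± 0.26 at the middle probe set (SE, adjusted p = 0.0208, limma). At the 5' probe set the hypoxic mice were 1.37 ± 0.22 (SE) above the controls. The controls there lay between 3.53 and 3.83, so that probe set passed the filter through the hypoxic mice alone. No p is given for it. Tfrc is given because the files' control probe sets name it. The array of hypoxic replicate 2 was not low throughout: the mean of 190 other bright probe sets was 12.69 on it and between 12.66 and 12.70 over the hypoxic arrays, while its hybridization spike-ins averaged 11.93, the lowest of all arrays. Their part in the order of the mice was not tested. Without this mouse Slc25a37 differed by 0.31 (adjusted p = 0.0981, limma) and Alas2 by 0.14 (adjusted p = 0.425, limma).

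Among the controls, replicate 3 was the highest at 4 of the 7 members, Alas2, Alad and both Fech probe sets, and the lowest at the other 3. It also had the highest Tfrc of the controls. Without control replicate 3 the change of Alad was 4.33 and that of Cpox 0.56, the largest for Alad and the smallest for Cpox over all mice left out in turn.

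The bright members sat in a range of the array where changes were small in general. Of 194 tested probe sets with a mean of 12 or more, among them Alas2, both Fech probe sets and Slc25a37, 24.2% passed the threshold, 29 upward and 18 downward. Their median absolute change was 0.18, against 0.32 over all tested probe sets, the largest rise was 1.08 and the largest fall -1.10. How far the scale compresses changes there, and whether a rise of that size would register at the level of Alas2 or Fech, was not tested.

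**Figure D4:**
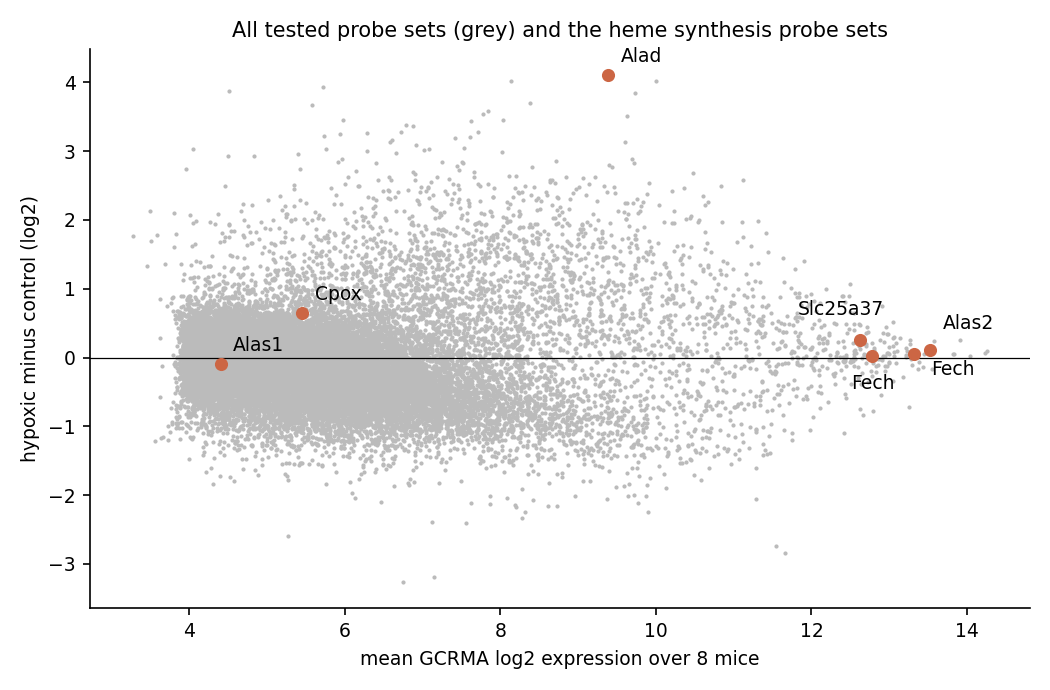
Difference of group means, hypoxic minus control (y axis, log2), against the mean level over 8 mice (x axis, GCRMA log2) for all 29231 tested probe sets (grey) and the 7 heme synthesis probe sets (orange). Alad has the highest point of all at 4.11, and Alas2, both Fech probe sets and Slc25a37 lie at the bright end near 0.

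The level of Alas2 was followed most closely by probe sets whose genes no table used here names. The 5 with the highest Pearson correlation with Alas2 over the 8 arrays ran from 0.960 to 0.983, and 1417583_a_at led. Their correlation over deviations from the group means was 0.923 to 0.971. They were picked as the highest of 29231, from arrays that share their normalization, and the values are a description. Among the members the correlation with Alas2 was 0.839 for Slc25a37, 0.781 for Alad, 0.662 and 0.730 for Fech, 0.455 for Cpox and 0.113 for Alas1. Over deviations from the group means it was 0.617 for Slc25a37, 0.561 for Alad, 0.783 and 0.750 for Fech, -0.681 for Cpox and 0.389 for Alas1, so that of Cpox turned sign.

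The promoters of the members that rose are shown beside that of Alas2, which did not pass the test, because GATA factors, KLF factors and hypoxia-inducible factors are known to act at genes of heme synthesis. RefSeq windows (GRCm38.p6) were at hand for 4 of the 6 genes. Each sequence is the 250 bases before an annotated start, 5′ to 3′ on the strand of the gene. Capitals mark matches on either strand to the GATA motifs AGATAA and TGATAA, to the KLF motif CCNCNCCC and to the core ACGTG bound by hypoxia-inducible factors. The shorter KLF core CACCC, which can lie inside the longer one, was counted and is not capitalised. Alad has 2 annotated starts, whose windows overlap in part.
Alad, chr4:62520064-62520313, minus strand: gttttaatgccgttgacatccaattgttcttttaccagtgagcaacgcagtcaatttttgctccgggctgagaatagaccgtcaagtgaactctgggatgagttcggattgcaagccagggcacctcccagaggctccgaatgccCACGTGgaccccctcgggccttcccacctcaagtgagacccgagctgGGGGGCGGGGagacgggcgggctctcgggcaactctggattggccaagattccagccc
Alad, chr4:62519910-62520159, minus strand: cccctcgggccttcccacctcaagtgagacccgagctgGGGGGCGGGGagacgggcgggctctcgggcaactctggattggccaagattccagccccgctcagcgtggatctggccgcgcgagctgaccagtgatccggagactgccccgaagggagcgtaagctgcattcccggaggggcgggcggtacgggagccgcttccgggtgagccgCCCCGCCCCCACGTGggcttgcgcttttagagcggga
Cpox, chr16:58669958-58670207, plus strand: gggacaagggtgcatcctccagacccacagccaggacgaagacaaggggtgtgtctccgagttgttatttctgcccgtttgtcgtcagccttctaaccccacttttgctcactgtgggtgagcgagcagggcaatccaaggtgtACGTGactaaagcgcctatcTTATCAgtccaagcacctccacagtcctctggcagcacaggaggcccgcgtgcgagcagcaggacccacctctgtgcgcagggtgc
Alas2, chrX:150547167-150547416, plus strand: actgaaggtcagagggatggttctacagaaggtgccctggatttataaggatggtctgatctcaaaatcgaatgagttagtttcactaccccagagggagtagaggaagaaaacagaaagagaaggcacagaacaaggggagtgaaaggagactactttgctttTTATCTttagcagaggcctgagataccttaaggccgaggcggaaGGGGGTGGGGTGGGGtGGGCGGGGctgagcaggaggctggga

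Alas2 and Cpox each held 1 GATA match, and Alad held none in either window. The match of Alas2 was AGATAA and that of Cpox was TGATAA, both on the opposite strand and both beginning 86 bases before the start. Of 32851 promoter windows of this length, 16.6% hold either of them, 9.99% the first and 7.94% the second. The core ACGTG was found in both Alad windows and in Cpox, and not in Alas2, against 16.6% of all windows. Only this form was searched. The related form GCGTG was not counted in any window, so a window without ACGTG is not shown to lack a hypoxia core. In each Alad window ACGTG lay in the palindrome CACGTG, which reads the same on both strands and so counts as 2 matches. The KLF motif CCNCNCCC had 4 matches in Alas2, 2 and 4 in the Alad windows and 0 in Cpox, some of them overlapping, and 45.9% of all windows hold it. The core CACCC had 3 matches in Alas2, 4 in Cpox, and 0 and 1 in the Alad windows, and 52% of all windows hold it. In the 2 windows of Alas1 neither a GATA motif nor ACGTG was found. These are matches of letters in short windows, and nothing in these data measured binding.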

How the data were processed

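RNA of 8 blood samples, 4 control and 4 hypoxic, was measured on 1 array each, and groups were taken from the sample titles. GCRMA and Partek were used, per the submitters' processing notes, with no versions in the sources used here. The deposited values are a score per probe set in which the decimal point of a log2 value was lost (values with few decimals became spreadsheet day numbers). Every reading of each value was formed, and the one giving the log2 difference of means in the authors' deposited table to within 5e-06 was kept. All 7 members had exactly 1 such reading, and their folds then matched the deposited fold ratio to 4.05e-10 in relative terms. The authors' table, a significance analysis of microarrays (SAM), lists 38206 probe sets with a deposited q-value in percent. The other 6895 were read from their own arrays alone, by the reading with the least spread around the median of the probe set. The same rule chose for 5 listed probe sets with several readings. It can lower the spread of these probe sets, and its effect on the shares over all tested probe sets was not tested.

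The fit took in every probe set that exceeded a log2 value of 4 on 4 or more of the 8 arrays, without 64 control probe sets, and used limma 3.58.1 (lmFit, eBayes, two-sided, group as the only term, R 4.3.3), with Benjamini-Hochberg adjustment over all 29231. The 3 Tfrc probe sets come from the same fit with the control probe sets kept. Pairs of members were compared by exact permutation over all 70 assignments of the mice and by limma on the within-mouse differences. The number of arrays limits the precision. Both steps were tested on simulated data. Mice with the same number are separate animals. Across probe sets, their departures from their group's mean correlated at -0.11, -0.06, -0.10 and 0.06. No pairing by number was seen, though 4 mice per group cannot exclude one.

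The members and lists were chosen with earlier results of these data known. All 7 members are named, with the 5 probe sets most like Alas2. No table that links probe sets of this array to genes was used, so the members' genes come from the choice of members. Other genes of the pathway, the lists for mitochondrial transport, iron-sulfur clusters and regulators, and the blood and liver cell markers were not analysed here, and other probe sets of the member genes and protein sequences were not used. Alternatives for the filter, scaling, variance, weights, floor, block, test and each mouse left out were run. Values were read and pairs tested in Python 3.11.15 with numpy 2.4.6, and tables and plots were made with pandas 2.3.3 and, for the latter, matplotlib 3.10.9.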

Additional observations from a re-analysis of the deposited data

Results flagged for a closer look

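Dixon's criterion was applied to 20 groups of 4 mice, that is to the 7 members and the 3 Tfrc probe sets in each group, and 4 values met it, where chance gives about 1. The Alas1 level of control replicate 1 was 4.71, with the other controls between 4.35 and 4.37. The Cpox level of control replicate 3 was 4.86, with the other controls between 5.20 and 5.26. The Fech level at 1418699_s_at of hypoxic replicate 2 was 13.19, with the other hypoxic mice between 13.39 and 13.40. The same mouse had a Tfrc level of 7.44 at the middle probe set, with the others between 6.13 and 6.34.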

How the results depend on the processing

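Centring on spike-ins and on bright probe sets was added after the data were seen. Alad stayed called in all 19 alternative fits (3.95 to 4.33, adjusted p up to 0.00321, limma) and Cpox in all 18 that tested it (0.56 to 0.73, adjusted p up to 0.0203, limma). Alas1, Alas2 and Fech were called in none of theirs, and Slc25a37 in 1 of 19, the linear model without moderation (0.0424), over a range of 0.19 to 0.32. With the filter at 6, Cpox and Alas1 are not tested, which left 1 member called, and 5809 of 10210 probe sets were called, against 9114 of 29231. The authors' deposited table has 13934 q-values under 5% among 38206. A fit with a replicate block, by mouse number, called 2 members and 7764 probe sets, and no member's call changed. The number of member pairs under the threshold was 0 by exact permutation, 12 with limma on the within-mouse differences, and 0 to 13 with 1 mouse left out at a time, where the smallest adjusted p moved between 0.0462 and 0.075 across the threshold. Signs that turned belong to differences that were never called. Alas1 ran from -0.189 to 0.00065 with 1 mouse left out, the upper value without hypoxic replicate 2. Fech at 1418698_a_at was at -0.017 with renewed quantile normalization, -0.0035 without hypoxic replicate 4 (up to 0.0835 without another mouse) and -0.031 with arrays centred on bright probe sets, where Fech at 1418699_s_at was at -0.014 (the cause was not tested). Centring on the median moved the median change of all tested probe sets from -0.06 to 0.02 and on bright probe sets to -0.12, and rises made up 39.7% of calls as reported, 51% with median centring, 48.8% with renewed quantile normalization and 31.2% with bright centring. Alas1 was read near the filter level of 4, Alas2 near the top of the scale, and Fech and Slc25a37 at its bright end. How far this limits their changes was not tested.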
